A study of Mus musculus with 16 samples.

Results

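Promoter-distal DNase hypersensitive sites (DHS) that lie over coding exons were examined in mouse liver. Peaks of the 4 deposited lists were joined into regions wherever they overlapped by at least 1 bp. A region was taken as a member when it was in any list, was more than 2.5 kb from every transcription start site (TSS) and covered at least 50 bp of a coding exon (CDS) of a protein-coding gene. Of 50655 autosomal regions, 34087 were promoter-distal and 1689 of these were members, which is 4.95% of the distal regions (95% Wilson interval 4.73 to 5.19, counting error only). No measured value chose the members, but the definition sets their position. In what follows, "other distal regions" are the 15864 promoter-distal regions in genes that did not meet the exon rule (15596 without coding sequence and 268 with 1 to 49 bp) and the 16534 intergenic ones.

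The lists came from livers of male and female mice, 8 weeks old by the labels, of the inbred strain C57BL/6J (called B6) and of CAST/EiJ (called CAST), which derives from wild mice. The labels name no treatment, transgene or mutant allele. Liver nuclei received 32 units of DNase I, and 4 libraries of each sex and strain, 16 in all, were pooled before peaks were called. Each group therefore had 1 list, no spread between mice could be measured and no p-value is given for any comparison. The autosomal lists held 38107 peaks for B6 males, 25782 for B6 females, 38971 for CAST males and 24467 for CAST females. As a check of the tissue, a DHS lay within 1 kb of a start site of all 11 hepatocyte marker genes found in the annotation, in all 4 lists for 9 of them. None of 5 leukocyte, 3 Kupffer cell and 3 skeletal muscle markers had such a DHS. Of 4 endothelial markers, Stab2 was in all 4 lists, Kdr and Tek in 2 and Cdh5 in none, and of 3 cholangiocyte markers Sox9 was in 4, Spp1 in 2 and Krt19 in none. Of 3 stellate cell markers, Reln was in 3 lists and Des and Lrat in none, and of 3 neuron markers, Rbfox3 was in 1 list and Neurod1 and Snap25 in none.

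DNase I cuts DNA where nucleosomes are displaced, most often at promoters, enhancers and insulators. Coding exons carry the protein sequence, but the same bases can also hold binding sites for transcription factors, and exons that act as enhancers are known. In liver, factors of the HNF4A, FOXA, C/EBP, HNF1 and STAT families bind many distal DHS near genes for plasma proteins and for the metabolism of steroids and drugs. Growth hormone, which is secreted in pulses in males and more continuously in females, controls many sex-biased liver genes through STAT5.

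The sequences shown are from members with their strongest summit in coding sequence, which are 34.2% of all members. Each sequence below is 300 bases around the strongest summit from the mm9 reference (NCBIM37), which is of the B6 strain. It is given 5' to 3' on the strand of the host gene, with coding bases in capitals and intron bases in lower case. The CAST sequence was not used. The first pair are the strongest Zfp member, in all 4 lists (chr7:134397666-134397965, + strand), and the strongest CAST-over-B6 member (chr17:74235616-74235915, - strand).
Zfp771, coding exon 2 of 2: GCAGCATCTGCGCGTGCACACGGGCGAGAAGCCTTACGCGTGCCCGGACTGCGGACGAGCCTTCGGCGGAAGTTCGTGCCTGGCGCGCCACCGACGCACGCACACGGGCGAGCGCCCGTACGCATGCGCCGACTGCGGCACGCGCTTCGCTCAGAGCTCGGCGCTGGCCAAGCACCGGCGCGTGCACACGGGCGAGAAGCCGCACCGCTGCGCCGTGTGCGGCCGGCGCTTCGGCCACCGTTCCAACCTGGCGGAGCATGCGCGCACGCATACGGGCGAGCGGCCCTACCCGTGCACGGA
Xdh, coding exon 35 of 36: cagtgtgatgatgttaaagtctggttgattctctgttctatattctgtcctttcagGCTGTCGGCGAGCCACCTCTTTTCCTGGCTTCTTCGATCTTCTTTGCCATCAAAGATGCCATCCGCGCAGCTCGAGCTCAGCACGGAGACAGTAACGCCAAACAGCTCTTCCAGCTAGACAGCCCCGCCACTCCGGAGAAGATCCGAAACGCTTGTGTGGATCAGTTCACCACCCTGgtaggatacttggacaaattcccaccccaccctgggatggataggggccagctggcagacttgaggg
The next 2 lay wholly inside 1 coding exon and were found in 1 strain only: Gpr110 in both B6 lists (chr17:43447235-43447534, + strand) and Nfatc3 in both CAST lists (chr8:108632347-108632646, + strand).
Gpr110, coding exon 10 of 14: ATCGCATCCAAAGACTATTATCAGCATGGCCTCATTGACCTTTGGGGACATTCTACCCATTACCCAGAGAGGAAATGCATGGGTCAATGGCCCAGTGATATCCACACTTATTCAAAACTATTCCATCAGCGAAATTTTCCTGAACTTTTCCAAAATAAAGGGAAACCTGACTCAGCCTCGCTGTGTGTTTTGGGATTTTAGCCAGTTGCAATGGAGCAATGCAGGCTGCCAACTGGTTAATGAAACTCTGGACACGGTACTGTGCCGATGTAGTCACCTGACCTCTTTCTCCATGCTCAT
Nfatc3, coding exon 9 of 10: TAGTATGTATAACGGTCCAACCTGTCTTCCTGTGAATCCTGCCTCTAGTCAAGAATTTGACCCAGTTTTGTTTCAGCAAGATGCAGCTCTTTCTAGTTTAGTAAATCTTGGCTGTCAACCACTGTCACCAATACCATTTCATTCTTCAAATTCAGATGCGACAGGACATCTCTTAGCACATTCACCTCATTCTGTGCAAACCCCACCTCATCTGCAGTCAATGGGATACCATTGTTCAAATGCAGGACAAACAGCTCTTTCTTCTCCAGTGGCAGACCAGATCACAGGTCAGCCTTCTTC
Scnn1a, found in both male lists and neither female list (chr6:125280949-125281248, + strand), and Tex2, the member past 2-fold in B6 over CAST in both sexes (chr11:106373165-106373464, - strand), follow.
Scnn1a, coding exon 2 of 12: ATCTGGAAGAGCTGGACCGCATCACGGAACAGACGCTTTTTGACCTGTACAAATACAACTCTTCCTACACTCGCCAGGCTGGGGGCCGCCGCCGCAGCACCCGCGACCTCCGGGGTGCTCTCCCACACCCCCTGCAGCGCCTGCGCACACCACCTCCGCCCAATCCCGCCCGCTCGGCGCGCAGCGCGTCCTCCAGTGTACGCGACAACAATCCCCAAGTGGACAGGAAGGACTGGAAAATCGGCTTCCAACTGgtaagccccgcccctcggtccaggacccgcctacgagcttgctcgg
Tex2, coding exon 9 of 11: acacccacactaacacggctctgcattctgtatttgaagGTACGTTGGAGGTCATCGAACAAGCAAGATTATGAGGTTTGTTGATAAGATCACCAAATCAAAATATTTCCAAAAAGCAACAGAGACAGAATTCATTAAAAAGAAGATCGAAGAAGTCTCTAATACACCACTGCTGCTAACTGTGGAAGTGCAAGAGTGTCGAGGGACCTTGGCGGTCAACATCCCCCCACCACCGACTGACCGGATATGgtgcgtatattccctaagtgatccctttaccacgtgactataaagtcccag
The last pair are from Alb, the serum albumin gene, and were chosen because exon 8 was in the B6 lists only (chr5:90897456-90897755, + strand) and exon 12 in the CAST lists only (chr5:90901376-90901675, + strand).
Alb, coding exon 8 of 14: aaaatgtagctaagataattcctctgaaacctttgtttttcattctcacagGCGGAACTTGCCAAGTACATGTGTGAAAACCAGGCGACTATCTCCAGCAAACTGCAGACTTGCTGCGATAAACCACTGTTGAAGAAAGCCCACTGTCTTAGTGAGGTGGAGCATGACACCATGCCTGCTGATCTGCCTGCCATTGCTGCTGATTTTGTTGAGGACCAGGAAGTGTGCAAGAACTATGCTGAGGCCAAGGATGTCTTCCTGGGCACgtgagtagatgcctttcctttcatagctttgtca
Alb, coding exon 12 of 14: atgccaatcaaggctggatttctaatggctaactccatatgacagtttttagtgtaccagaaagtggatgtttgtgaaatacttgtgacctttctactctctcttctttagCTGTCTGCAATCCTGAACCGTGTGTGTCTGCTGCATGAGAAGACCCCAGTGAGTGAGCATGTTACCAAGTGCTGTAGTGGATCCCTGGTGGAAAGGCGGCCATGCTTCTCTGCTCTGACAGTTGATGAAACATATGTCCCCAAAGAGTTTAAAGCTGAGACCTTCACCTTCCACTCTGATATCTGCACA
The Zfp771 window was entirely coding, with a GC content of 73.3% and a CpG observed over expected ratio of 1.32, whereas the Alb windows had 46.7% and 45.3% GC and ratios of 0.245 and 0.13. Apart from Xdh and Tex2, the windows were picked for display after their values were seen. In the Alb exon 8 window, an E-box (CACGTG) straddled the 3' end of the exon.

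Most members covered an exon and the introns beside it rather than exon sequence alone. Members had a median width of 580 bp (quartiles 366 to 818), against 528 bp for other distal regions. The coding exon under a member had a median length of 150 bp, and the whole exon lay inside the region for 1031 members (61.0%). Only 108 members (6.39%) lay wholly inside 1 coding exon. Coding sequence made up 27.9% of all member base pairs, with a median of 25.7% per member. The exon was internal for 1289 members (76.3%), the last coding exon for 312 (18.5%), the first for 58 (3.43%) and the sole coding exon for 30 (1.78%). The few first exons follow in part from the definition, since first exons are near start sites. Members lay a median of 10641 bp from the nearest TSS, and other distal regions 22166 bp.

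The strongest summit of a member, taken from the peak with the highest within-list percentile of −log10 q, was in coding sequence for 578 members (34.2%, interval 32.0 to 36.5). It was in an intron for 972 (57.5%), in a UTR exon for 123 (7.28%) and outside annotated genes for 16. Per list, 26% (female CAST) to 30.8% (male B6) of the members' summits were in coding sequence. The strongest summit lay within 100 bp of the centre of the exon for 571 members (33.8%) and within 300 bp for 1286 (76.1%). It fell upstream of the centre for 807 members and downstream for 880.

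**Figure D1:**
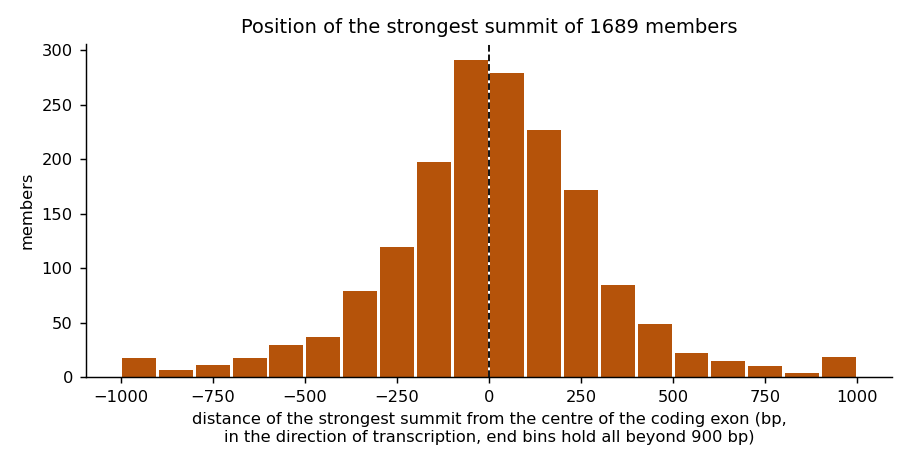
Number of members (y axis, counts) by the distance in bp of the strongest summit from the centre of the coding exon, in the direction of transcription (x axis, 100-bp bins, the end bins holding all beyond 900 bp). The highest bins are those on each side of the centre, with 291 and 279 members, and the counts fall on both sides.

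Distal coding exons held slightly more summits per base than introns, and the difference was smaller among stronger peaks. Strongest summits of distal regions occurred at 27.9 per Mb of distal coding sequence (591 regions over 21.2 Mb), 29.7 per Mb of UTR exons, 20.9 per Mb of introns and 12 per Mb of intergenic sequence. The ratio of coding exons to introns was 1.34 (interval 1.23 to 1.45) over the joined regions and 1.09 to 1.26 in the single lists. Limited to peaks with −log10 q of at least 5, it was 1.04 (0.937 to 1.16). By exon length, members covered 1.21% of distal coding exons of 50 to 99 bp and 6.66% of those of 1000 bp or more, whereas per Mb of exon the order was the opposite, from 156 to 37.7. A longer exon offers more bases to a region, and a short one is covered by any region centred nearby, so both orders include the geometry of the rule.

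Members made up similar shares of each list. They made up 5.02% of the distal regions of the B6 male list (1174 members) and 5.54% in B6 females (751). In CAST the shares were 5.0% in males (1219) and 5.51% in females (718). Their median −log10 q was 11.7, 8.33, 14.3 and 9.92 in these lists, and their median within-list percentile was 39.1, 36.6, 42.0 and 41.0, against 40.9, 39.5, 41.4 and 41.0 for other distal regions. The list values cover wide ranges, from 1.31 to 705 in male B6 and from 1.38 to 489 in female CAST.

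All 4 lists held 455 members (26.9%, interval 24.9 to 29.1). The share was 35.5% over all autosomal regions, which include promoters, 21.9% over other distal regions in genes and 25.8% over intergenic regions. One list alone held 657 members (38.9%), against 45.0% and 41.4% of the other distal classes. A region built from more lists is also wider, with a median of 866 bp for members in 4 lists and 334 bp for members in 1 list, so the share in 4 lists and the chance of covering 50 bp of an exon move together.

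**Figure D2:**
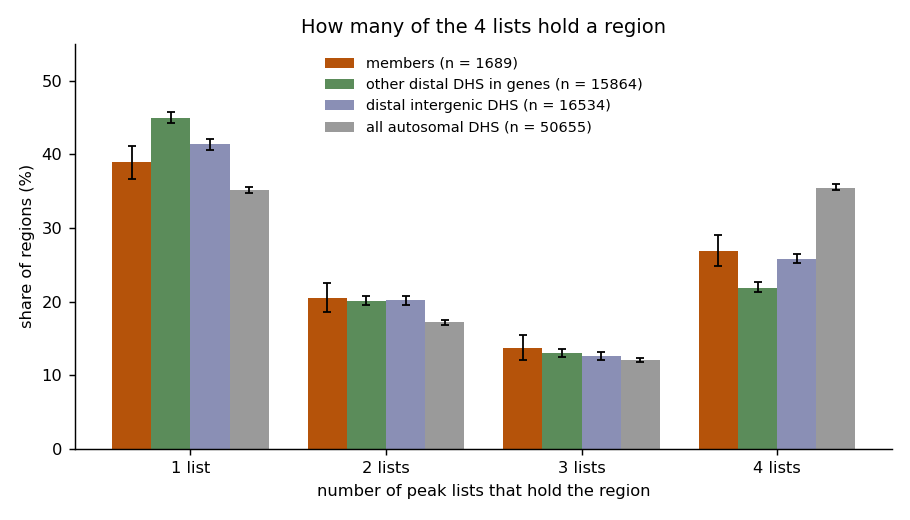
Share of regions (y axis, %) held by 1, 2, 3 or 4 of the peak lists (x axis) for members, other distal regions in genes, intergenic distal regions and all autosomal regions. Bars start at 0 and lines are 95% Wilson intervals. Members in 4 lists (26.9%) sit above the other distal regions in genes (21.9%) and below all autosomal regions (35.5%).

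Members whose summit was in the exon differed from those whose summit was in the intron. Of the 578 with a coding summit, 15.1% (interval 12.4 to 18.2) were in all 4 lists and 53.8% (49.7 to 57.8) in 1 list only. Of the 972 with an intronic summit, 32.9% were in all 4 lists and 30.9% (28.0 to 33.8) in 1 list. Their mean within-list percentiles had medians of 18.6 and 34.9. Among the 108 members wholly inside 1 coding exon, 6 were in all 4 lists and 67 in 1 list. The 6 were over Dtx3l, Arid2, Med26, Csrnp1, Tchh and BC068157, and were named after their values were seen. Dtx3l, an E3 ubiquitin ligase, had −log10 q values of 74.5 (male B6), 21.6 (female B6), 108 (male CAST) and 38.5 (female CAST) inside a coding exon of 1638 bp. Arid2, a subunit of a SWI/SNF chromatin remodelling complex, had 59.3, 38.3, 23.4 and 9.90 inside an exon of 2843 bp. Med26, a Mediator subunit, had 30.7, 11.9, 48.0 and 9.11. The other 3 were weaker, between 3.12 and 20.5 in all lists.

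The sequence around member summits was richer in G and C than that of other distal regions. The median GC content of the 300-bp window was 50.3% (quartiles 45.0 to 55.7) for members, 46.7% for other distal regions in genes and for intergenic regions, and 48.0% for windows centred on all 117266 distal coding exons of at least 50 bp. The median CpG observed over expected ratio was 0.283 for members, 0.205 and 0.212 for the other distal classes and 0.294 for coding exons. The GC content was 54.0% for coding summits and 48.7% for intronic summits. This difference was present within each list count, with 54.3% and 50.7% in members of 1 list and 53.7% and 48.8% in members of 4 lists.

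Exact matches to 10 motifs were counted on both strands of these windows, and a base could count toward more than 1 motif. HNF4A (CAAAGTNCA) was found in 5.33% of members (90 windows, interval 4.36 to 6.50), close to the 5.09% and 5.20% of the other distal classes and above the 1.53% of distal coding exons. C/EBP (TTGCNNAA) was in 17.9% of members, 20.1% and 20.7% of the other distal classes and 11.8% of coding exons. FOXA (TGTTTAC) was in 6.34%, against 8.13%, 7.82% and 3.81%, and HNF1 (GTTAATNAT) was in 1.78%, against 2.35%, 2.72% and 0.724%. For these 3 the members lay between coding exons and other distal regions. AP-1 (TGANTCA) was in 7.46% of members, near the 7.44% of coding exons and below the 10.7% and 12% of the other distal classes, and STAT (TTCNNNGAA) was in 8.64%, against 9.49% of coding exons and 11.5% and 12% of distal regions. ETS (CCGGAAG) was in 3.26% of members, 2.81% of coding exons and 1.61% and 2.21% of distal regions, and the CTCF core (AGNGGGCNC) in 4.74%, 3.74%, 3.54% and 3.88%. The E-box was in 6.69% of members, 4.63% of coding exons and 6.57% and 6.02% of distal regions, and NFY (CCAAT) in 32.9%, 33.1%, 35.5% and 37.7%. Members in 4 lists held HNF4A in 6.81%, C/EBP in 23.3% and FOXA in 8.57%, and members in 1 list in 3.96%, 13.4% and 4.72%. The intervals of HNF4A overlapped (4.84 to 9.51 and 2.71 to 5.74). HNF1, STAT, AP-1, the E-box and NFY were also higher in members in 4 lists. CTCF and ETS were lower, with 3.30% and 2.86% in 4 lists and 5.33% and 3.65% in 1 list. A match is a description of the letters and not a test of binding.

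Among members in all 4 lists, the 8 of highest mean percentile without a near-identical copy elsewhere were over Nav2, Cmbl, Sfi1, Cutc, Slc17a2, Gnat1, Myom1 and Dock6. Nav2, a cytoskeletal protein of axon guidance, had −log10 q values of 705 (male B6), 289 (female B6), 695 (male CAST) and 260 (female CAST) at chr7:56652519-56653649, over coding exon 4 of 38. The summit pileups, recovered from the deposited fold enrichment and p-value, were 900, 422, 864 and 329 reads. Cmbl, a hydrolase expressed in liver, had 576, 158, 717 and 270 at chr15:31512956-31513970, over coding exon 2 of 5. In both, the summit was in the intron, 381 and 258 bp from the exon. In both, each male list was above the female list of its strain. The lists had a genome-wide background of 15.3 (male B6), 13.9 (female B6), 14.2 (male CAST) and 7.94 (female CAST) reads. Over all regions in 4 lists, pileup over this background was also higher in males, by median log2 ratios of 0.80 in B6 and 0.51 in CAST. The cause of this shift was not tested. Scaled fold enrichment, the fold enrichment divided by the median of its list over regions in all 4 lists, differed little between sexes at Nav2 (log2 male over female −0.11 in B6 and −0.24 in CAST) and Cmbl (0.15 and −0.15).

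Sfi1, a centrosomal protein, came after Cmbl by mean percentile, with 186, 177, 1112 and 489, the highest of any member in both CAST lists. Cutc, a copper homeostasis protein, and Slc17a2, a phosphate transporter, followed, with 361 and 350 in male B6, 140 and 87.9 in female B6, 319 and 377 in male CAST and 130 and 151 in female CAST. Gnat1, the rod transducin alpha subunit, and Myom1, a sarcomere protein, are known mainly from retina and muscle. Gnat1 had 308, 92.7, 440 and 109 and Myom1 had 331, 82.2, 369 and 122. Dock6, a guanine nucleotide exchange factor, had 260, 90.3, 387 and 116 (chr9:21634630-21636599). Of the 8, the strongest summit was in coding sequence only for Sfi1 and Dock6, in a UTR exon for Slc17a2 and Gnat1 and in an intron for the other 4. The Zfp771 site, whose sequence is given above, had 244, 116, 204 and 53.1, so it too was present in every list at chr7:134397290-134398215.

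**Figure D3:**
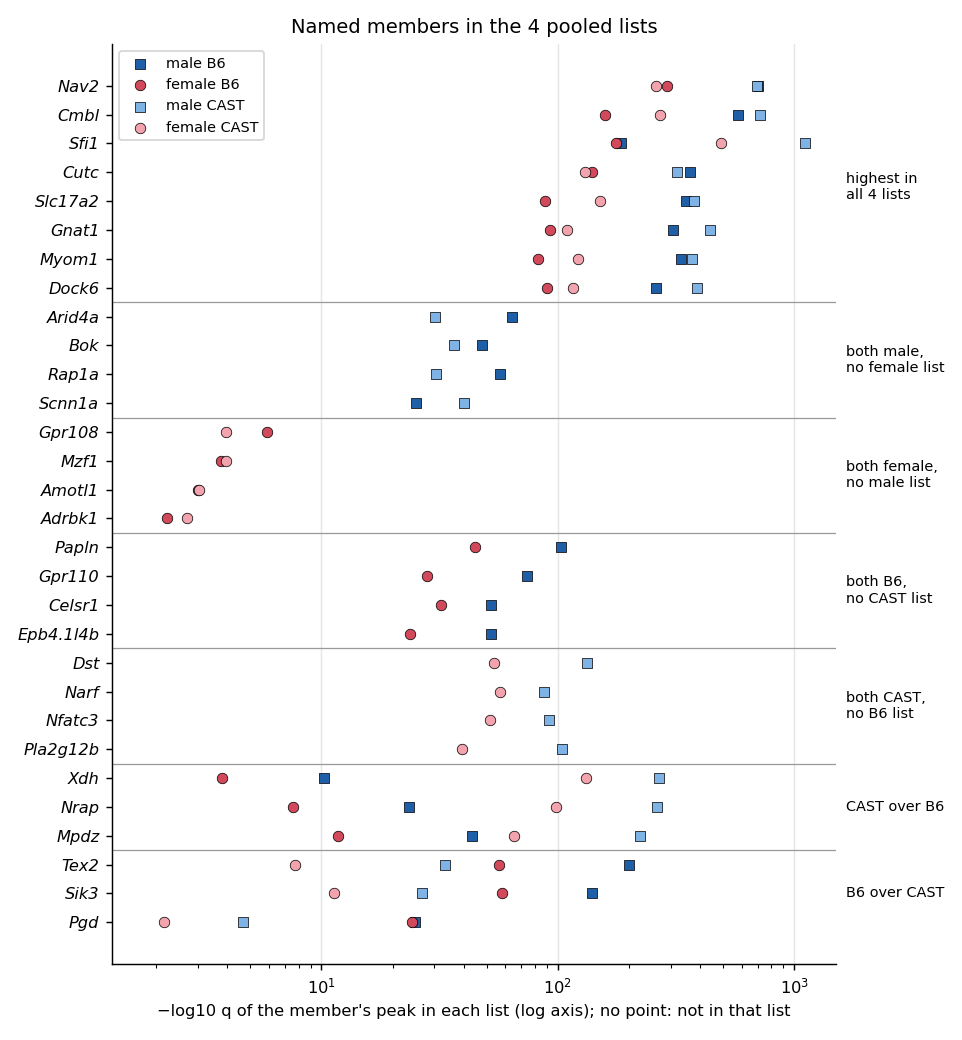
−log10 q (x axis, log scale) of the peak in each of the 4 lists for named members (y axis), grouped by how they were chosen, with squares for male and circles for female lists. A missing point means that the member was not in that list. The 8 strongest members have 4 points each above 80, and those of the female-only group have points under 6.

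Some genes held several members. A member was over a coding exon of 1473 of the 15400 genes that have at least 50 bp of distal coding exon (9.56%). Of these genes, 1291 held 1 member, 157 held 2, 17 held 3, 6 held 4 and 2 held 5. One member covered coding exons of more than 1 gene. Dock8, a guanine nucleotide exchange factor known from leukocytes, and Sfi1 held 5 each. At Dock8 the regions over coding exons 9 and 12 of 48 were in all 4 lists, with −log10 q of 18.7, 4.24, 28.8 and 5.0 and of 19.6, 8.33, 26.4 and 13.9. The region over exon 35 was in both CAST lists only (23.8 and 28.1), and those over exons 11 and 18 were in male CAST only (6.95 and 2.01). At Sfi1, 4 of 5 were in all 4 lists, but the local background was 507 to 1187 reads at the regions over coding exons 9 to 12, against the genome-wide 7.94 to 15.3, so these peaks stand on a raised baseline. At the strongest Sfi1 region (chr11:3031775-3033071, coding exon 31 of 32) the background was 138, 134, 350 and 186 reads. Its 300-bp summit window did not have a second match of at least 95% identity over 80% of its length in the reference.

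The third gene by the same rule, 4930562C15Rik, held 4 members, each in 1 list, with −log10 q between 1.95 and 6.42. Of the others with 4, Gldc, the glycine decarboxylase of mitochondrial glycine cleavage, is highly expressed in liver. Its region over coding exon 17 had 37.4, 19.1, 27 and 9.93, that over exon 7 had 20.9, 7.74, 11.4 and 3.98, that over exon 5 was missing from female CAST (12, 5.47 and 9.13 elsewhere), and that over exon 4 was in male B6 only (3.50). Aox1, an aldehyde oxidase, had 1 region in all 4 lists, over exon 23 (40.5, 8.48, 78.8 and 9.41). Its region over exon 16 had 70.5 in male CAST and was in no other list. Dapk1, a death-associated kinase, had its strongest region over exon 17, with 124, 55.4, 153 and 51.5. Gldc, Aox1 and Dapk1 were chosen after their values were seen.

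Genes of plasma proteins hosted members more often than genes in general. Of 72 secreted plasma protein genes with distal coding exons, 23 hosted a member (31.9%, interval 22.3 to 43.4), with 259 members per Mb of distal coding sequence against 79.7 over all genes. Their 28 members included 7 in all 4 lists (25%, against 26.9% of all members), and 15 had a coding summit (53.6%, against 34.2%). In this and the other groups, the member of highest mean percentile was named by rule and the rest after their values were seen. C8a, a complement component, had 124, 24.8, 77.0 and 17.9 over its last coding exon, with an HNF4A match. Ahsg, the fetuin-A gene, had 85.9, 29.3, 86.0 and 29.7, and the region was the widest of all members at 2864 bp. F11, coagulation factor XI, had 84.6, 11.6, 38.7 and 9.75 over exon 3. Igf1, the growth factor made in liver under growth hormone, had 62.6, 29.7, 91.4 and 24.8 over its last coding exon. Plg, plasminogen, had 44.2, 16.2, 20.6 and 15.9. Itih2, an inter-alpha-trypsin inhibitor chain, had 2 regions that both male lists held and neither female list did, with 27.2 and 5.48 over its last exon and 10.1 and 12.2 over exon 4, the second with HNF4A and C/EBP matches.

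Alb was covered at 3 coding exons, and no region was in all 4 lists. The region over exon 8 had 6.57 in male B6 and 8.57 in female B6 and was in neither CAST list. The region over exon 12 had 5.48 in CAST males and 13.6 in CAST females and was in neither B6 list. The region over exon 4 was in female CAST only, with 14.5 and a summit pileup of 85 reads. All 3 summits were in coding sequence. The local background was 51.4 and 37.8 reads at exon 8 and 60.2 and 33.6 at exon 12, above the genome-wide 7.94 to 15.3, with fold enrichments of 1.91 and 2.24 and of 1.76 and 2.69. Other plasma protein genes also had weak regions over coding exons, such as Hp, haptoglobin, with 5.28, 6.59 and 4.74 in every list except that of CAST males, and Apob, the main protein of low-density lipoprotein, with 3.76 in female CAST only.

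Hepatocyte transcription factors and nuclear receptors had 11 hosts among 45 genes (24.4%, interval 14.2 to 38.7) and 12 members. Stat5b, which carries the growth hormone signal, had 39, 14.1, 90.6 and 47.6 over coding exon 12 and a second region over exon 18 in both CAST lists only (12.5 and 9.06). Pparg, a lipid-sensing nuclear receptor, had 44.7, 17.4, 22.7 and 26.1. Ppara, the receptor for fatty acids in liver, had 13.9, 8.42, 28.0 and 14.1, with FOXA, HNF4A and C/EBP matches. Rora, a clock-associated receptor, had 13.9, 8.50, 26.4 and 13.3. Srebf2, the regulator of cholesterol synthesis, had 25.2 and 16.4 in CAST and none in B6. Hnf4a and Nr5a2 each had a member that was in the male lists alone, with 8.61 and 10.7 and with 7.91 and 13.7.

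Drug and steroid metabolising enzymes and transporters, taken by family prefix, had 35 hosts among 273 genes (12.8%, interval 9.36 to 17.3), an interval that includes the 9.56% of all genes. Of their 42 members, 15 were in all 4 lists (35.7%, against 26.9% of all members). Cyp4f39 had 119, 33.6, 108 and 42.8 with a coding summit. Cyp2e1, which oxidises ethanol, had 10.6, 7.51, 11.8 and 5.30 with a coding summit. Cyp2j5 had 14.8 and 14.4 in the male lists and was in no female list, and Abca9 had 24.3 and 5.03 in the B6 lists and was in no CAST list. These enzymes belong to families with similar members, for which reads could be lost when only unique alignments are kept, which was not tested.

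The other gene groups ran from above to below the share of all genes. Notch, semaphorin, plexin and laminin genes had 11 hosts of 40 (27.5%, interval 16.1 to 42.8), but their 84.2 members per Mb was near the 79.7 of all genes. Lama3, a laminin chain, had 211, 77.2, 261 and 85, the highest of its group in every list, and Lamb3, another laminin chain, had 134, 42.6, 36.6 and 6.10. Kinesin, myosin and dynein genes had 13 hosts of 74 (17.6%), with 69.9 members per Mb, below that of all genes. Collagen genes had 7 of 42 (16.7%, interval 8.32 to 30.6) and 62.2 members per Mb, with Col27a1 at 53.0, 11.6, 69.0 and 17.3. Zfp genes had 20 of 314 (6.37%, 4.16 to 9.63) and 14 of their 22 members had a coding summit (63.6%, against 34.2% of all members). Cadherin and protocadherin genes, taken by the prefixes Cdh and Pcdh, had 1 of 43 (2.33%, 0.412 to 12.1), Pcdh12, whose stronger region had 6.42 in male CAST only.

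**Figure D4:**
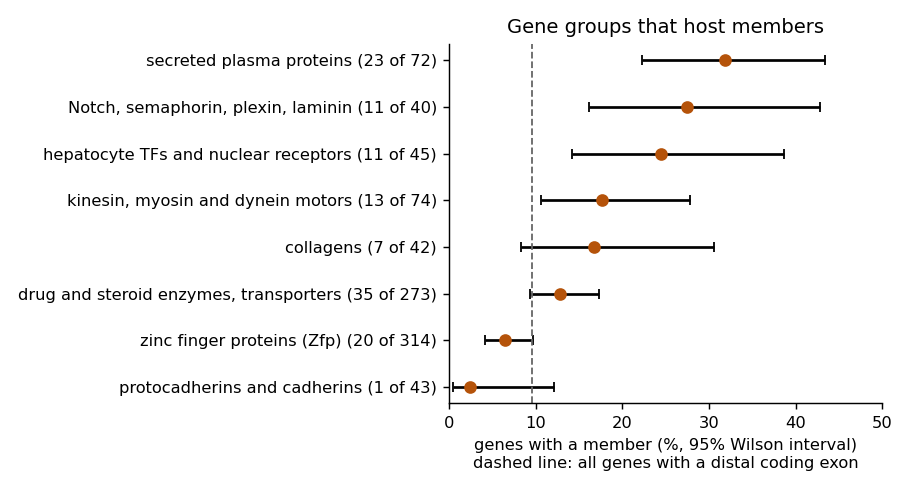
Share of the genes of each group that hosted at least 1 member (x axis, %), with 95% Wilson intervals and the number of hosts of eligible genes in the labels (y axis). The dashed line is the 9.56% of all genes with a distal coding exon. Plasma protein genes (31.9%) lie furthest to its right and Cdh and Pcdh genes (2.33%) furthest to its left.

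Male and female lists were compared within each strain. Of the members in either B6 list, 638 of 1287 (49.6%, interval 46.8 to 52.3) were in both sexes, against 58.5% of all autosomal regions, and in CAST 656 of 1281 (51.2%, 48.5 to 53.9), against 55.7%. The same shares were 44.6% and 43.2% in other distal regions in genes and 51% and 47.6% in intergenic regions. Both male lists without a female list held 169 members (10%, interval 8.66 to 11.5), near the 9.37% of all autosomal regions. Both female lists without a male list held 4 members (0.237%, 0.0921 to 0.607), against 0.0533%. The male lists were also the longer ones. The recovered pileups were then thinned to the background of the female CAST list, an alternative added for these counts after the data were seen. The counts were 144 (10.1%, against 8.60% of all regions) and 4 (0.280%, against 0.0684%) of 1430 members. The thinned male lists were still the longer ones, with 34084 (B6) and 35685 (CAST) peaks against 23351 and 24467 in females.

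Members in both male lists alone were weaker than those in all 4 lists, which by definition passed every threshold. Classes limited by strain were weaker too, with median −log10 q of 11.4 in male B6 (B6 lists only) and 12.5 in male CAST (CAST lists only). Members in both male lists alone had medians of 7.81 in male B6 and 8.58 in male CAST, against 38.9 and 44.7 for members in all 4 lists. The strongest by mean percentile were over Arid4a, Bok, Rap1a and Scnn1a. Arid4a, a chromatin protein, had 64.0 in male B6 and 30.2 in male CAST, with pileups of 176 and 105 reads. Bok, a BCL2-family protein, had 47.8 and 36.5, with an AP-1 match. Rap1a, a small GTPase, had 56.8 and 30.5, with a FOXA match. Scnn1a, a subunit of the epithelial sodium channel, had 25.2 and 39.9 with the summit inside coding exon 2, whose sequence is given above. No female list held a peak at these 4, which does not mean that the signal there was 0, since the lists give only peaks past the threshold.

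The 4 members held by the female lists alone were weak, with −log10 q under 6 in both lists. Gpr108 had 5.87 in B6 and 3.96 in CAST, Mzf1, a zinc finger factor, had 3.75 and 3.93, Amotl1 had 3.01 and 3.04, and Adrbk1 had 2.21 and 2.70. Their pileups were 23 to 56 reads. Both Mzf1 peaks lay inside a coding exon of 1430 bp, with 70.7% GC in the summit window.

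Where all 4 lists held a member, sex differences in scaled fold enrichment were small. This set leaves out the members found in 1 sex only, so low counts past 2-fold follow in part from how it was chosen. No member of 455 had a male-over-female ratio of at least 2 in both strains, which allows a share of up to 0.659% (3 counts of 455), against 0.00556% of all 17999 regions in 4 lists. None had a female-over-male ratio of at least 2 in both strains, against 0.00556%. The male count was 1 with fold enrichment as deposited (0.20% of all) and 5 by pileup over background (1.10%, against 2.12% of all), and the female count was 0 by both. The median log2 ratio was −0.05 in B6 (quartiles −0.24 to 0.15) and −0.08 in CAST (−0.26 to 0.09). As deposited, before scaling, fold enrichment was shifted toward males by medians of 0.42 in B6 and 0.26 in CAST on the log2 scale over all regions in 4 lists, and the ratios here are relative to those shifts. The largest male-over-female ratios in both strains were at Terf1, a telomere-binding protein, with −log10 q of 58.9, 6.39, 76.2 and 6.70 and log2 ratios of 0.79 in B6 and 0.82 in CAST. 5730419I09Rik followed (0.79 and 0.61), then Dync2li1, a dynein chain of cilia (0.44 and 0.45). In the female direction, Hmcn2, an extracellular matrix protein, had −0.70 and −0.75. By pileup over genome-wide background, which shifts all regions toward males by 0.80 in B6 and 0.51 in CAST, it had 0.57 and −0.09, and −0.23 and −0.60 relative to those shifts. Nodal, a TGF-beta family ligand, had −0.57 and −0.72, by pileup 0.55 and 0.20, and relative to the shifts −0.25 and −0.31. Ddc, the dopa decarboxylase, had −0.61 and −0.53, and −0.85 and −0.72 by pileup relative to the shifts. The male-over-female members had 0.68 and 0.95 (Terf1), 0.51 and 0.47 (5730419I09Rik) and 0.72 and 0.44 (Dync2li1) by the same centred measure, which was added after the data were seen.

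**Figure D5:**
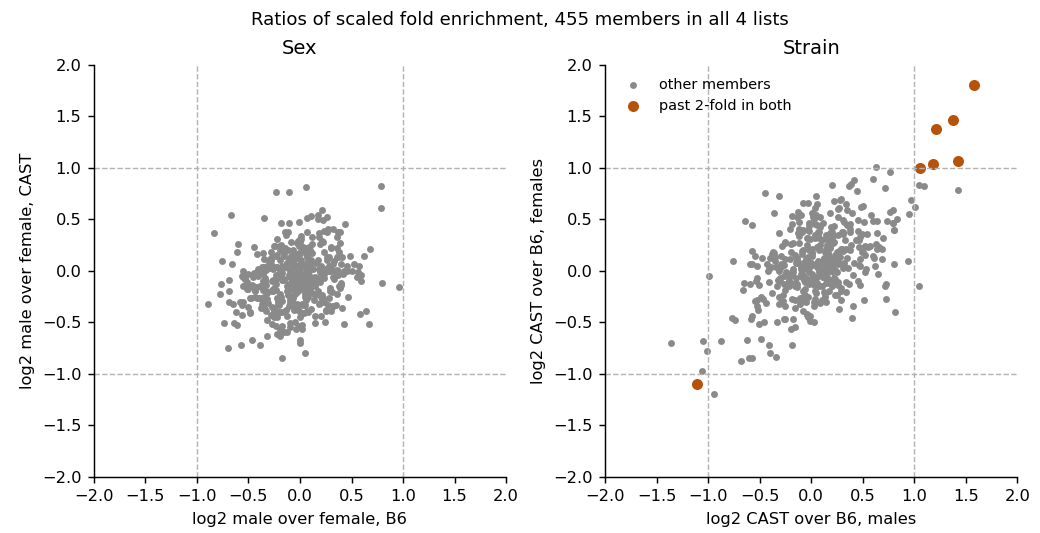
Log2 ratios of scaled fold enrichment at the 455 members in all 4 lists, male over female in B6 (x axis) and CAST (y axis) on the left, and CAST over B6 in males (x axis) and females (y axis) on the right. Dashed lines mark 2-fold. No point passes 2-fold in both strains for sex, and 7 points, 6 of them in the CAST direction, pass in both sexes for strain.

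B6 and CAST lists were compared within each sex. Of the members in either male list, 842 of 1551 (54.3%, interval 51.8 to 56.8) were in both strains, against 59.9% of all autosomal regions, and in females 472 of 997 (47.3%, 44.3 to 50.4), against 59.1%. In other distal regions in genes the shares were 49.3% and 44.3%, and in intergenic regions 51.3% and 47.9%. Both B6 lists and no CAST list held 62 members (3.67%, interval 2.87 to 4.68), near the background of 3.30%. Both CAST lists and no B6 list held 91 (5.39%, 4.41 to 6.57), against 3.64% of all autosomal regions and 4.25% and 5.02% of the other distal classes. With pileups thinned as above, the counts were 53 (3.71%, against 3.15% of all regions) and 100 (6.99%, against 4.47%) of 1430 members.

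The strongest members in both B6 lists only were over Papln, Gpr110, Celsr1 and Epb4.1l4b. Papln, an extracellular matrix protein, had 103 in males and 44.6 in females. Gpr110, an adhesion receptor, had 74.1 and 28.0, with pileups of 146 and 80 reads, and all 876 bp of the region were within 1 coding exon. Celsr1, an atypical cadherin of planar cell polarity, had 52.0 and 32.2, and Epb4.1l4b had 52.3 and 23.6. The strongest in both CAST lists only were over Dst, Narf, Nfatc3 and Pla2g12b. Dst, the cytoskeletal linker dystonin, had 133 in males and 53.9 in females, Narf had 87.1 and 56.7, and Pla2g12b, a phospholipase-like protein of lipoprotein secretion, had 104 and 39.4. Nfatc3, a calcium-regulated transcription factor, had 91.9 and 51.8, with all 949 bp inside 1 coding exon of 1005 bp. Of the 108 members wholly inside a coding exon, 8 were in both B6 lists only and 8 in both CAST lists only (7.41% each, interval 3.8 to 13.9), beside 3.30% and 3.64% of all autosomal regions.

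At members in all 4 lists, log2 CAST-over-B6 ratios ran from −1.36 to 1.58 in males and from −1.20 to 1.8 in females, with medians of 0.06 and 0.07, against −0.03 and −0.02 over all regions in 4 lists. A CAST-over-B6 ratio of at least 2 in both sexes was found at 6 members (1.32%, interval 0.606 to 2.85, against 0.333% of all regions in 4 lists). A B6-over-CAST ratio was found at 1 (0.220%, interval 0.0388 to 1.23, against 0.133%). The 17999 regions in 4 lists include promoters. Only 7747 of them were other distal regions, for which these shares and medians were not computed. Members found in 1 strain only are not in this set. By pileup over background, which was not centred, 27 members passed in the CAST direction (5.93%, against 2.69% of all), and as deposited 9 did (1.98%, against 0.744%). The 6 were over Xdh, Nrap, Mpdz, Cenpm, Pqlc2 and Zfp335. Xdh, the xanthine dehydrogenase of purine breakdown, had −log10 q of 10.2 and 3.78 in B6 and 267 and 132 in CAST, over coding exon 35 of 36 (chr17:74235204-74235960), with a summit in the exon. Its scaled fold enrichment was 2.98-fold higher in CAST males and 3.48-fold higher in CAST females, and its pileups were 53 and 35 reads in B6 and 436 and 213 in CAST. Nrap, a muscle actin-binding protein, had 23.4 and 7.59 in B6 and 263 and 98.5 in CAST (2.60-fold and 2.76-fold). Mpdz, a scaffold of tight junctions, had 43.2 and 11.7 against 222 and 65.0 (2.32-fold and 2.60-fold). By pileup over background these ratios were larger, with log2 values in males and females of 3.15 and 3.42 for Xdh, against 1.58 and 1.8 by scaled fold enrichment, of 2.35 and 2.66 for Nrap, against 1.38 and 1.46, and of 1.52 and 1.70 for Mpdz, against 1.21 and 1.38. Zfp335 was at the limit, 2.08-fold and 2.00-fold higher.

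Tex2, a lipid transfer protein, was the member with at least 2-fold more in B6, with 200 and 56.4 in B6 and 33.4 and 7.73 in CAST over coding exon 9 of 11 (chr11:106373096-106373835). The log2 CAST-over-B6 ratio was −1.11 in males and −1.10 in females, but in females it was −0.83 with fold enrichment as deposited and −0.95 by pileup over background, both under the 2-fold limit. Sik3, a salt-inducible kinase, and Pgd, an enzyme of the pentose phosphate pathway, were just inside or outside in 1 sex, with −1.06 and −0.97 and with −0.94 and −1.20. CAST reads were aligned to a genome carrying CAST variants and B6 reads to mm9, so strain and alignment cannot be told apart here.

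Members in a single list were mostly near the threshold, with exceptions. The median −log10 q was 4.07 for the 260 in male B6 only, 3.01 for the 86 in female B6 only, 4.90 for the 263 in male CAST only and 3.34 for the 48 in female CAST only. The highest, named after their values were seen, were over Acadm, the medium-chain acyl-CoA dehydrogenase (75.5 in male B6, 171 reads), Aox1 (70.5 in male CAST, 159 reads), Alb exon 4 (14.5 in female CAST) and Rbfox3 (8.54 in female B6). A further 2 members, over Il10ra and Snrpd3, had 83.8 in male B6 alone, but their values are not usable. The male B6 list held 26 peaks at different sites that shared only 3 sets of fold, p and q values, with fold enrichments of 1.33 to 1.54, and these 2 members were among them.

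The positions of summits were similar between lists. At members in all 4 lists, the summits of male and female peaks were a median of 47 bp apart in B6 and 43 bp in CAST, and those of B6 and CAST were 43 bp apart in males and 61 bp in females. In other distal regions in 4 lists the medians were 43, 40, 37 and 55 bp. At the edge of the rule, 97 distal regions with 50 to 59 bp of coding exon were members and 72 with 40 to 49 bp were not, and 22.7% and 12.5% of them were in all 4 lists.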

How the data were processed

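DNase-seq of nuclei from fresh liver was carried out on 16 libraries, 4 from each sex of B6 and CAST. Per the methods, B6 reads were aligned uniquely to mm9 with Bowtie2 and CAST reads to mm9 with CAST variants inserted, whose coordinates were then converted back. Peaks were called with MACS2 on the pooled libraries of each group, and blacklisted peaks and peaks made only of duplicates were removed. The deposited lists give fold enrichment at the summit (a ratio of pileup to local background), −log10 p, −log10 q and a score, which equals 10 times −log10 q without its decimals and was not used. Read totals of the libraries were not used here, and the depth of a list is seen in its genome-wide background of 7.94 to 15.3 reads.

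Regions on the 19 autosomes were annotated with the GENCODE vM1 genes of NCBIM37. Start sites were taken from transcripts of protein-coding genes, lincRNAs and processed transcripts. Summit pileups were recovered from fold enrichment and −log10 p with a pseudocount of 1, and 99.9% to 100% came out whole within 0.02. Joining, distances and recovery were checked on simulated data. With 1 pooled list a group there was no test. Shares carry 95% Wilson intervals (statsmodels 0.14.6), which cover counting error only. Named members were, by rule, the 8 strongest in all 4 lists, the 4 strongest of each sex- or strain-limited class, the 3 largest ratios in each direction, all members of the 3 genes with most members, and the strongest of each gene group. Near-identical copies were sought with BLAST+ 2.17.0 (95% identity over 80% of the window), and 2 members had one. The members, gene groups and alternatives were chosen with earlier results of these data known. Bowtie2 and MACS2 are named in the submitters' processing notes. Some members that the rule names are not reported here.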

Additional observations from a re-analysis of the deposited data

How the results depend on the processing

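Of 132 recomputed summary values, 91 stayed within the interval of the reported value (counts within 1.5 times) and 41 moved. The 41 do not include the sex and strain ratios of the named members. With fold enrichment as deposited, 93 of those ratios stayed and 54 moved. By pileup over genome-wide background only 46 stayed and most moved, so their sizes depend on the scaling. No strain ratio of the named members past 2-fold changed sign (no sex ratio was past 2-fold). No paired analysis was possible because the replicate numbers in the labels belong to libraries that were pooled before peaks were called, and leaving out 1 replicate was likewise not possible. With equal list sizes of 24467 peaks there were 1023 members in place of 1689, 37.5% of them in all 4 lists, 64.0% of B6 and 65.7% of CAST members in both sexes, 60.1% of male members in both strains, 29.3% with a coding summit, a coding-to-intron density of 1.15 and a median GC of 49.3%. With pileups thinned to the depth of the female CAST list, the same values apart from the member count were 29.8%, 53.2%, 54.6%, 57.3%, 31.9%, 1.21 and 49.7%. At −log10 q of at least 5, members were 4.69% of distal regions, 30.7% were in all 4 lists, 53.7% of B6 members were in both sexes, 61.5% of male and 54.3% of female members were in both strains, 28.0% had a coding summit, the density was 1.04 and the GC 49.5%. With peaks joined only at 50% of both, 21.1% were in all 4 lists, 42.3% of B6 and 43.3% of CAST members were in both sexes, 45.8% of male and 41.9% of female members were in both strains, and 36.6% had a coding summit. The exon limit set the member share of distal regions and the share with a coding summit, at 5.74% and 30.2% for 1 bp and 3.39% and 43.3% for 100 bp, the latter with a GC of 51%. The promoter limit gave member shares of 5.47% at 1 kb, with a GC of 51%, and 4.40% at 5 kb. Summed exon overlap, start sites of every gene type, and leaving out copies moved none of the 10 main summaries, nor did leaving out the 26 male B6 peaks of repeated values, an alternative added after seeing the data. Other scalings, also added later, moved the counts past 2-fold. Fold enrichment as deposited gave 1 male-over-female and 0 B6-over-CAST members, beside 0.20% and 0.0278% of all regions in 4 lists, and 9 CAST-over-B6 members (0.744%). Pileup over genome-wide background gave 5 male-over-female and 27 CAST-over-B6 members, beside 2.12% and 2.69%. The cause of these moves was not tested, other than that fewer peaks enter the stricter settings. Depth limits the lists, since a region missing from a list may have signal under its threshold.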

Other observations

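The male list alone in B6 and the female list alone in CAST held 6 members (0.355%, against 0.282% of all autosomal regions). The female list alone in B6 and the male list alone in CAST held 14 (0.829%, interval 0.494 to 1.39, against 0.519%).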
